A study of Mus musculus with 2 samples.

Results

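Nucleoporins and nuclear transport receptors build and work the gates between nucleus and cytoplasm. They were taken here as every gene whose symbol in the authors' table begins with Nup, Kpna, Kpnb, Ipo or Xpo followed by a number or begins with Ranbp, together with Ran, Tpr, Rae1, Aaas, Ndc1, Cse1l and Tnpo1. The symbols gave 55 genes on 133 probes, of 26878 named genes on the array. Of the 55, 52 had a probe well above background on both arrays, against 16354 of all genes, and the 3 without one were Nup62cl, Ranbp17 and Ranbp3l.

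Expression was compared between 1 array of Stat5b-knockdown cells, stably transduced with a lentivirus carrying a short hairpin RNA against Stat5b, and 1 array of control cells that had received a non-target hairpin in the same way. Both came from a single stem cell line, grown as neurospheres in serum-free medium with EGF and bFGF and derived from a mouse glioblastoma that a Sleeping Beauty (SB) transposon had induced. All of the cells therefore shared the transposon-driven tumour background and a lentiviral hairpin, and whether a clone was picked is not given in the sources used here. The design asks which transcripts differ when Stat5b, a transcription factor downstream of cytokine receptors, is lowered in the tumour cells.

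The nuclear pore is a ring-shaped channel through the nuclear envelope. Scaffold nucleoporins form its rings, and others with repeats of phenylalanine and glycine fill the channel and let only bound receptors through. Importins carry cargo in and exportins carry it out, and the small GTPase Ran, loaded with GTP in the nucleus, releases cargo from importins and binds it to exportins. In mitosis the pores come apart, and Ran and several nucleoporins and importins act at the spindle and kinetochores.

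Each group held 1 array, so no difference could be set against the spread between cultures and no p-value is given. The ± printed with a difference is the scanner software's own error, combined over arrays, spots and probes of a gene as if independent. It thus shrinks with the number of spots and probes and leaves out the spread between probes. Measured spreads were 0.0576 on the log2 scale over replicate spots of 1 probe (SD, 297 probes) and 0.310 over different probes of 1 gene (SD, 7244 genes). Differences are log2 levels, knockdown minus control, after each array was set to its 75th percentile, and a gene's value is the mean over those of its probes that both arrays read well above background, called measured. Because the RNA came from whole cultures, fewer cells of a kind and less RNA per cell cannot be told apart.

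The brighter Stat5b probe read 498 on the knockdown array, against 1991 on the control array, a difference of -2.00 ± 0.20. A dimmer Stat5b probe read 7.49 on the knockdown array, not well above background, and 14.7 on the control array. Well above background were 58.6% of probes on the knockdown array and 59.5% on the control array. Of 7 neural stem cell markers, Nes, Vim, Msi1 and Prom1 were measured (median -0.11), Sox2 and Fabp7 were above background on neither array, and Olig2 was on the knockdown array alone. Of 9 immune genes 4 were measured, with a median of 0.17. The brightest probes of all 9, measured or not, summed to a signal of 10320 in knockdown and 8146 in control. Ptprc was at 0.55, Csf1r at 0.22, Itgam at 0.11 and C1qb at -0.18, while Aif1, Cx3cr1, P2ry12, C1qa and Tyrobp were above background on neither array. Of 6 fibroblast and mural cell markers, 5 were measured and all 5 were higher on the knockdown array (median 0.97). The brightest probes of all 6, Lum included, summed to a signal of 2630 in knockdown and 998 in control. The sixth, Lum, went the other way, at 3.21 in knockdown and 76.8 in control, and was above background on 1 array. Of 7 astrocyte markers 4 were measured (median 0.96). The brightest probes of all 7, measured or not, summed to a signal of 4245 in knockdown and 2012 in control. Of this Aldoc alone gave 3929 in knockdown and 1832 in control. Slc1a2 was at 0.038 ± 0.25, within its scanner error, and the Aqp4 probes disagreed, at -0.023 and 1.90 (mean 0.94). Gja1 was at 0.98 ± 0.26 from 1 of its 8 probes, a dim one at 61.5 in knockdown and 31.1 in control. The astrocyte median lies between the values of Aqp4 and Gja1. On 1 array each were Gfap, at 15.1 in knockdown and 23.2 in control, and S100b, at 122 in knockdown and 9.22 in control, and Slc1a3 was on neither. The part of these markers in the results below was not tested.

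Most nuclear pore and transport genes were slightly lower on the knockdown array. Of the 52 measured, 42 lay below 0 and 10 above, where 48.8% of all measured genes lay below 0. Their median difference was -0.20, which is 87.3% of the control level, against a median of 0.013 over all genes. The middle 50% of the members lay between -0.35 and -0.038, and that of all genes between -0.24 and 0.28. The members thus lay closer together than genes at large, around a centre below 0. Different probes of 1 gene also lay closer together in the members (SD 0.209) than over all genes (SD 0.310). The part of this in the narrower spread was not tested.

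Large differences were few. At least 1.5-fold lower were 2 members, Xpo4 and Nup85, of 52 (3.85%), against 8.42% of all genes, and 0 were at least 1.5-fold higher, against 11% of all genes. A 2-fold difference was reached by 0 members, which 2.41% of all genes did downward and 3.67% upward. Among brighter probes, or with the brightest probe of each gene, it was reached by 1 member, Xpo4. In the reported setting the share past 1.5-fold was thus no higher than that of genes at large. Ndc1, Nup50 and Nup107 lay just short of the line, at 67.0%, 67.7% and 68.2% of control, and Nup85 just past it at 64.8%. Below 0 by more than the SD between probes of a gene were 17 members (32.7%), against 20.3% of all genes, and above 0 by more than it was 1, Nup210l, against 23% of all genes.

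Where a member had several probes they mostly pointed the same way. Of 37 members with 2 or more measured probes, 26 had each probe below 0, 3 had each above (Ipo13, Ranbp10 and Xpo6) and 8 had probes on both sides. Over all genes with several measured probes, 35.4% had each probe below 0. The shares with each probe above 0 or with probes on both sides were not counted over all genes. Single probes of the members numbered 90 below 0 of 113 measured. The same count over all probes was not made, and of all measured genes 48.8% lay below 0. The plot of members by role shows the gene values with their probes. Counts below 0 in the role groups that follow stand beside that 48.8% of all measured genes.

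**Figure D1:**
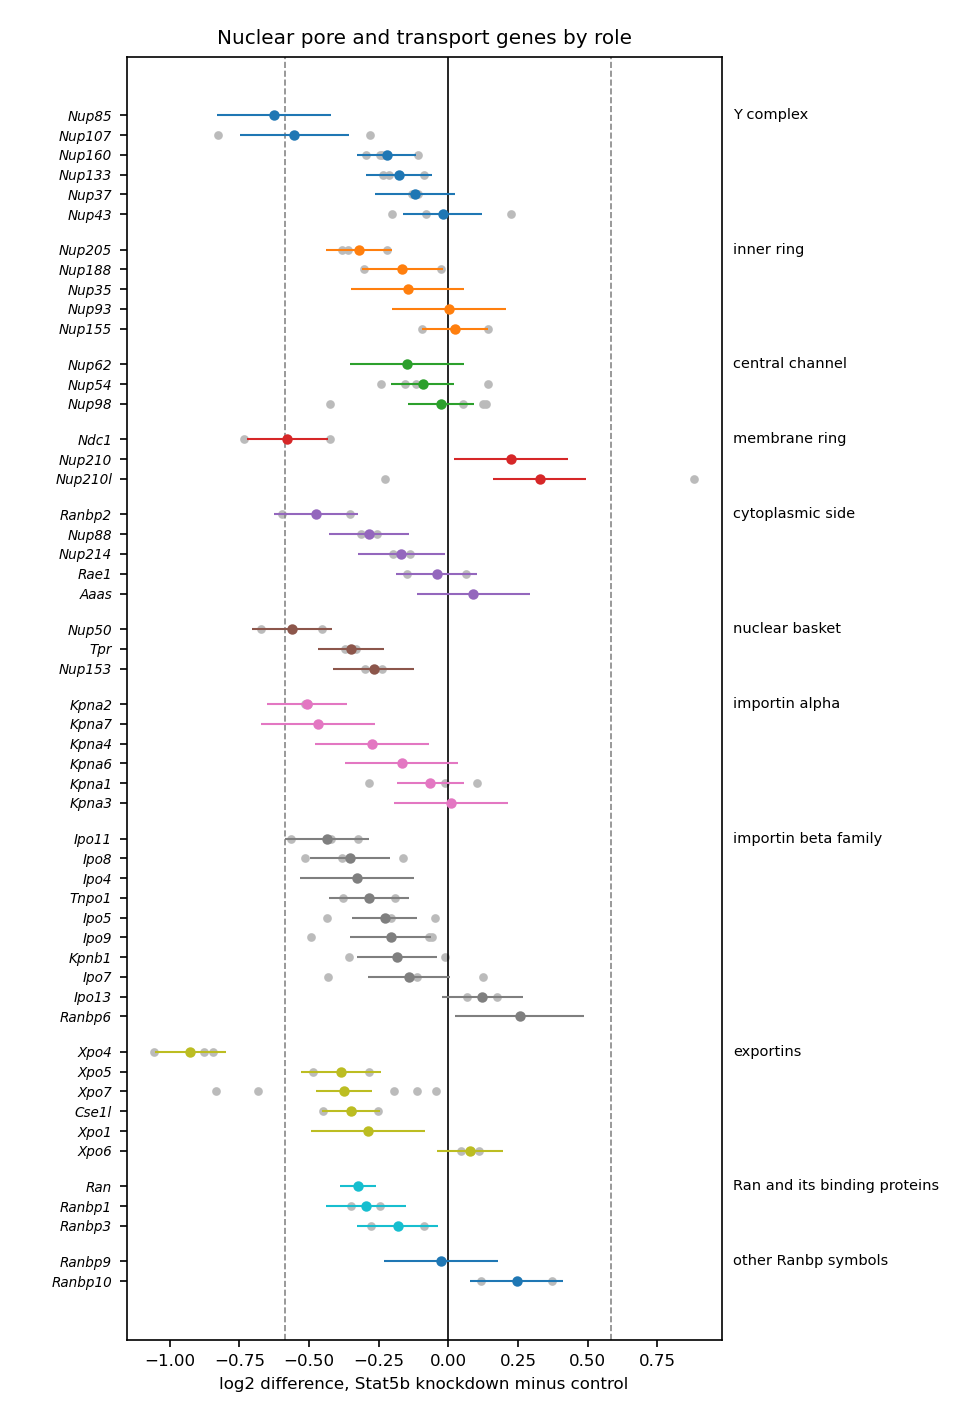
Log2 difference, Stat5b knockdown minus control, of the 52 members measured on both arrays, grouped by role. Coloured points are gene means with the scanner error as a bar, grey points are single probes and dashed lines mark 1.5-fold; 42 genes lie below 0, and Xpo4 and Nup85 lie past the lower line.

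The Y complex, which forms the outer rings of the pore and sits at kinetochores in mitosis, lay below 0 in 6 of 6 members, with a median of -0.20. Nup85, a scaffold subunit of the short arm, read 22953 on the knockdown array and 35420 on the control array, a difference of -0.63 ± 0.20 from 1 probe. With quantile normalization it was at -0.56 and no longer 1.5-fold lower. Nup107, in the stem of the complex, read 8076 on the knockdown array and 9796 on the control array with its bright probe, and 19.6 in knockdown and 34.7 in control with a dim one. Its probes thus differed in size, at -0.28 and -0.83, and the mean of -0.55 ± 0.19 rested in good part on the dim probe. With normexp, a background correction that damps dim probes, Nup107 was at -0.24.

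The other members of the Y complex differed little. Nup160 gave 2089 on the knockdown array and 2248 on the control array with its brightest probe, and its 4 probes lay between -0.30 and -0.11 (mean -0.22 ± 0.11). Nup133, which reaches the membrane at the tip of the stem, was at -0.18 ± 0.12 over 3 probes, of which 2 share a stretch of at least 20 bases. Nup37 was at -0.12 ± 0.14, within its scanner error. Nup43 was at -0.020 ± 0.14, with probes from -0.20 to 0.23. A further probe passed the background only in control cells and gave a bound of 1.26-fold lower in the knockdown. As read that probe was at -0.58 ± 0.48, and the bound lies within this scanner error.

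In the inner ring, which anchors the channel proteins to the scaffold, 3 of 5 members lay below 0 and the median was -0.15. Nup205 read 5677 on the knockdown array and 6616 on the control array with its brightest probe, and its 3 probes lay between -0.38 and -0.22 (mean -0.32 ± 0.12). Its paralogue Nup188 was at -0.16 ± 0.15, with the brighter probe at -0.027 and the dimmer at -0.30, and Nup35, a membrane-binding subunit, was at -0.15 ± 0.20. Nup93, which links the inner ring to the channel, read 34037 on the knockdown array and 33936 on the control array, a difference of 0.0031 ± 0.20. A second Nup93 probe passed the background only in control cells. As read it was lower by 1.32-fold in the knockdown (-0.40 ± 0.42), within its scanner error. The measured probes of Nup93, Kpna6, Kpna7 and Xpo1 all lay in the bottom 64 rows of the arrays, and without those rows the members' median was -0.21 over 48 genes, of which 39 lay below 0. Nup155, another scaffold subunit, was at 0.023 ± 0.12, with probes from -0.094 to 0.14.

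Of the channel nucleoporins, whose phenylalanine-glycine repeats bind transport receptors, the 3 measured members stayed near 0, with a median of -0.093. Nupl1, a further channel nucleoporin that the symbols did not select, was at -0.43 ± 0.12, with 3 probes between -0.74 and -0.24. Nup62 read 17070 on the knockdown array and 18895 on the control array (-0.15 ± 0.20). Nup54 was at -0.093 ± 0.11, with 3 of its 4 probes below 0. Nup98, whose gene also encodes the Y complex subunit Nup96, gave opposite answers by probe. Its brightest probe read 1946 on the knockdown array and 2609 on the control array (-0.42), while 3 dimmer probes lay between 0.052 and 0.14, for a mean of -0.028 ± 0.12. With the brightest probe of each gene Nup98 was thus at -0.42. Nup62cl, a Nup62-like gene, was above background on neither array.

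The membrane ring held members on both sides of 0. Ndc1, a transmembrane nucleoporin needed for pore assembly, read 1807 on the knockdown array and 3001 on the control array with one probe, and 1510 in knockdown and 2023 in control with the other. Both Ndc1 probes were lower (-0.73 and -0.42, mean -0.58 ± 0.14). Nup210, a membrane glycoprotein that appears as cells differentiate, read 658 on the knockdown array and 562 on the control array (0.23 ± 0.20). Its relative Nup210l was the highest member at 0.33 ± 0.17, but its probes disagreed. One read 441 on the knockdown array and 239 on the control array (0.88) and the other 28.9 in knockdown and 33.8 in control (-0.23). With the brightest probe, or with RefSeq probes alone, Nup210l was at 0.88 and past 1.5-fold.

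On the cytoplasmic side, where cargo is released and messenger RNA leaves, 4 of 5 members lay below 0 (median -0.17). Ranbp2, the giant filament protein that binds Ran and acts as a SUMO ligase, read 1220 on the knockdown array and 1555 on the control array, and 56.7 in knockdown and 85.7 in control with a dimmer probe. Both Ranbp2 probes were lower, and the mean was -0.47 ± 0.15. Nup88 read 7055 on the knockdown array and 8754 on the control array and was at -0.28 ± 0.14, and its partner Nup214 was at -0.17 ± 0.16. Rae1, a factor of messenger RNA export and of the spindle, had 1 probe on each side of 0 and a mean of -0.042 ± 0.14. Aaas, which encodes the nucleoporin ALADIN, read 4561 on the knockdown array and 4281 on the control array (0.090 ± 0.20).

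The nuclear basket, which faces the chromatin, lay below 0 in 3 of 3 members, with a median of -0.35, the lowest of the pore's role groups. Nup50, which helps importin alpha let go of its cargo, read 6872 on the knockdown array and 9395 on the control array, and 604 in knockdown and 961 in control with a second probe (mean -0.56 ± 0.14). Tpr, the basket's filament protein, read 7979 on the knockdown array and 10024 on the control array, and its 3 probes lay within -0.37 to -0.33. The probes of Tpr, at -0.35 ± 0.12 on average, thus gave nearly 1 value. Nup153, which holds the basket to the pore, was at -0.27 ± 0.14, with probes at -0.30 and -0.24.

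**Figure D2:**
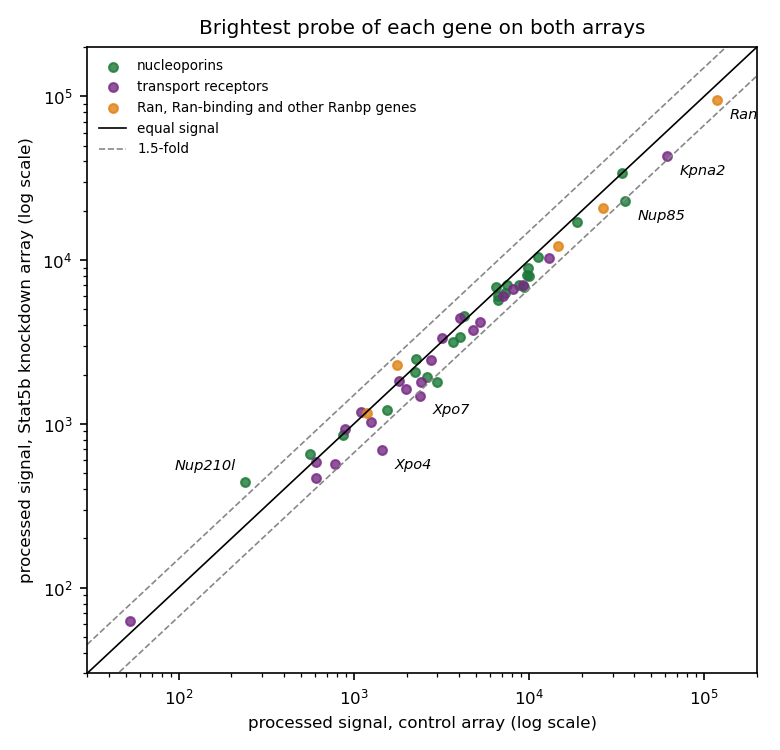
Processed signal of each member's brightest probe, on the Stat5b-knockdown array (vertical, log scale) against the control array (horizontal, log scale). The solid line marks equal signal and the dashed lines 1.5-fold; Xpo4 (694 in knockdown and 1444 in control), Ndc1 (1807 in knockdown and 3001 in control), Xpo7 (1489 in knockdown and 2391 in control) and Nup85 (22953 in knockdown and 35420 in control) lie below the lower line, and Nup210l lies above the upper one.

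Importin alpha proteins bind the classical nuclear localization signal and hand the cargo to importin beta. Of 6 members, 5 lay below 0, with a median of -0.22. Kpna2, the isoform abundant in dividing cells, read 42954 on the knockdown array and 61268 on the control array with one probe, and 22936 in knockdown and 32481 in control with another. Both Kpna2 probes gave nearly the same difference (-0.51 and -0.50, mean -0.51 ± 0.14). The dimmer of these shares at least 20 bases with a probe that has no gene name, which was at -0.60, and cross-hybridization was not tested.

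The remaining importin alpha genes spread from lower to level. Kpna7, an isoform of the mouse oocyte and early embryo, read 568 on the knockdown array and 785 on the control array (-0.47 ± 0.20). Kpna4 was at -0.27 ± 0.20 and Kpna6 at -0.17 ± 0.20. Kpna1 was at -0.065 ± 0.12, with probes from -0.29 to 0.10, and Kpna3 read 1825 on the knockdown array and 1812 on the control array (0.0095 ± 0.20). Kpna1 and Kpna3 were thus near level while Kpna2 was at 70.3% of control.

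In the importin beta family, 8 of 10 members lay below 0, with a median of -0.22. Kpnb1, importin beta itself, read 3752 on the knockdown array and 4799 on the control array with one probe (-0.36), and 3009 in knockdown and 3030 in control with the other (-0.011). The mean was -0.18 ± 0.14, and the probes did not settle whether the gene was lower or level. Ipo11 read 4219 on the knockdown array and 5281 on the control array with its brightest probe, and its 3 measured probes were each lower (mean -0.44 ± 0.15). A further Ipo11 probe passed the background only in knockdown cells and as read was higher there by 1.57-fold (0.65 ± 0.42). Ipo8, at -0.35 ± 0.14, read 469 on the knockdown array and 612 on the control array with its brightest probe, and its 3 probes were each lower.

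Carriers of ribosomal proteins and histones belong to the same family. Ipo4 read 10341 on the knockdown array and 12968 on the control array (-0.33 ± 0.20). Ipo5 was at -0.23 ± 0.12, Ipo9, an importer of core histones, at -0.21 ± 0.14, and Ipo7 at -0.14 ± 0.15 with probes from -0.43 to 0.12. The mean of Ipo9 rested on a dim probe at -0.49, while its brighter probes were at -0.070 and -0.058. With normexp Ipo9 was at -0.074. Tnpo1, which imports RNA-binding proteins, read 7073 on the knockdown array and 9188 on the control array (-0.29 ± 0.14). Above 0 were Ipo13, a carrier that works in both directions, which read 3361 in knockdown and 3203 in control (0.12 ± 0.14), and Ranbp6, an Ipo5 relative, which read 63.0 in knockdown and 52.7 in control (0.26 ± 0.23). The differences of Ipo13 and Ranbp6 were close to their scanner error.

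Exportins held the member farthest from 0. Xpo4, which exports the translation factor eIF5A and the signalling protein Smad3, read 694 on the knockdown array and 1444 on the control array, 65.9 in knockdown and 121 in control with a second probe, and 37.6 in knockdown and 67.4 in control with the dimmest. All 3 probes were lower (-1.06, -0.88 and -0.84), for a mean of -0.93 ± 0.13, or 52.6% of control. Over 10 other ways of processing Xpo4 ranged from -1.06 to -0.63 and stayed at least 1.5-fold lower.

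Among the other exportins 4 of 5 measured members were below 0. Xpo5, the exporter of microRNA precursors, read 1624 on the knockdown array and 1975 on the control array with its brightest probe and was at -0.38 ± 0.14. Cse1l, which returns importin alpha to the cytoplasm, read 5998 on the knockdown array and 7144 on the control array, and its 4 probes lay between -0.45 and -0.25 (mean -0.35 ± 0.10). Xpo1, the main exporter of proteins with leucine-rich signals, read 6637 on the knockdown array and 8096 on the control array (-0.29 ± 0.20). Xpo6, the exporter of actin, was level to slightly higher at 0.079 ± 0.12, with 3 probes between 0.046 and 0.11.

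Xpo7, an exportin of broad cargo, had 8 probes and the widest disagreement among the exportins. The probe for its RefSeq transcript read 1489 on the knockdown array and 2391 on the control array (-0.68). The other 4 measured probes ranged from -0.84 to -0.043, and the mean was -0.37 ± 0.10. With the RefSeq probe alone Xpo7 was 1.5-fold lower. One more Xpo7 probe read 3.40 on the knockdown array, where it was not well above background, and 74.3 on the control array, a level lower by at least 5.73-fold in the knockdown. That spot lay in the bottom 64 rows. Ranbp17, an Xpo7 relative, had 4 probes, and neither array read any of them well above background.

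Ran and its partners were lower together. Ran read 95084 on the knockdown array and 118831 on the control array, at 79.9% of control (-0.32 ± 0.065). Ranbp1, which helps turn over Ran-GTP in the cytoplasm, read 20871 on the knockdown array and 26563 on the control array (-0.30 ± 0.14). Ranbp3, a cofactor of Xpo1, was at -0.18 ± 0.15. All 3 measured members of this group lay below 0, with a median of -0.30, and Ranbp3l was not well above background. Of the genes that carry a Ranbp symbol but belong to a ubiquitin ligase complex, Ranbp9 was at -0.027 ± 0.20, and Ranbp10 read 2275 on the knockdown array and 1756 on the control array (0.25 ± 0.17).

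By function, the transport receptors (importins and exportins) had a median of -0.28 over 22 measured genes, with 18 below 0. The nucleoporins had a median of -0.16 over 25, with 20 below 0. Of all measured genes 48.8% lay below 0. The receptors ranged from -0.93 to 0.26 and the nucleoporins from -0.63 to 0.33, so the ranges overlapped widely, and the difference between them was not tested.

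Genes of the same pathway that the symbols did not select, 36 of them with a probe, had a median of -0.22. Below 0 were 29 of 36, against 48.8% of all genes. At least 1.5-fold lower were 5 of 36 (13.9%), against 8.42% of all genes and 3.85% of the members, and 0 were 1.5-fold higher, against 11% of all genes. Xpot, the exporter of transfer RNA, read 700 on the knockdown array and 1394 on the control array and was at 50.1% of control. The Y complex recruiter Ahctf1 read 1315 in knockdown and 2390 in control (-0.86 ± 0.20), and the membrane nucleoporin Pom121 read 3273 in knockdown and 5912 in control (-0.81 ± 0.14). Also past 1.5-fold were Sun2, which ties the nuclear envelope to the cytoskeleton (-0.88 ± 0.20), and the messenger RNA export factor Nxt2 (-0.59 ± 0.21). Xpot, Ahctf1, Sun2 and Nxt2 were each read by 1 probe, and Nxt2 lay just past the line. Tnpo2, at -0.58 ± 0.15, lay just short of it. Of the enzymes that charge and discharge Ran, Rcc1 was at -0.43 ± 0.15 and Rangap1 at -0.16 ± 0.12. The Y complex subunits Seh1l and Sec13 were at 0.25 ± 0.14 and 0.024 ± 0.20, so the complex counted in full had members on both sides of 0.

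Genes of cell division were lower by more. All 24 on the list lay below 0 (48.8% of all genes did), with a median of -0.62, and 16 were at least 1.5-fold lower (8.42% of all genes). Ccna2, the cyclin of S phase and early mitosis, read 3535 on the knockdown array and 8267 on the control array (-1.16 ± 0.14), and Top2a was at -0.71 ± 0.10. These lists were chosen with such a difference already known, and the part of division genes in the difference of the nuclear pore and transport genes was not tested. In the plot of the spread of differences, the members stand between the division genes and all genes.

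**Figure D3:**
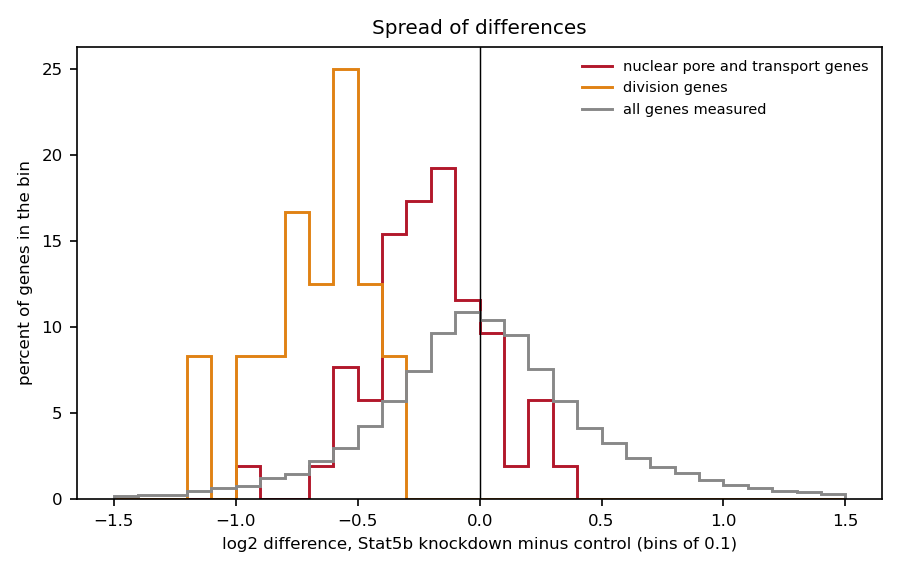
Share of genes (vertical, percent) in bins of log2 difference, Stat5b knockdown minus control (horizontal), for the nuclear pore and transport genes (52), the division genes (24) and all measured genes (16354). The members centre on -0.20, the division genes on -0.62 and all genes on 0.013; genes beyond the ends of the axis are not drawn.

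Promoters of the members were searched for motifs of growth and division genes and for the STAT motif. RefSeq sequences of build GRCm38.p6 were matched for 43 members, with 49 windows of 250 bases before an annotated start. Xpo4 and Nup85, the members past 1.5-fold, had no promoter among them. The letters searched on both strands were TTCNNNGAA (STAT), CCAAT (the box bound by NF-Y), TTTGAA and TTCGAA (cell cycle homology region, CHR) and TTTGGCGC and TTTCCCGC (E2F), and matches may overlap. The lines show the 120 bases before the start, with matches in capitals, for 4 genes that hold both CCAAT and TTTGAA there and for Nup50 and Ndc1, which were among the lower members.
Kpna2, chr11:106999526-106999645, minus strand: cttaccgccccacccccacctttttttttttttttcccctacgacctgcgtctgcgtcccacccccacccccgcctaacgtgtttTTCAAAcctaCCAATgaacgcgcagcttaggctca
Ranbp1, chr16:18248695-18248814, minus strand: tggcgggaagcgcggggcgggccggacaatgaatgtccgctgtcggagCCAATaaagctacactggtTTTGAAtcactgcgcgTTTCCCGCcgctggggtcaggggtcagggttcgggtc
Nup37, chr10:88146872-88146991, plus strand: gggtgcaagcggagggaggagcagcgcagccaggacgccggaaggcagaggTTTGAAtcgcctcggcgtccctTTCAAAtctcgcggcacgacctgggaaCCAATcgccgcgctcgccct
Nup98, chr7:102210167-102210286, minus strand: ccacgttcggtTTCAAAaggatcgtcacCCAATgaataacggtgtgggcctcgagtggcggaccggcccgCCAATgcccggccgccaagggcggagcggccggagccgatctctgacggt
Nup50, chr15:84923308-84923427, plus strand: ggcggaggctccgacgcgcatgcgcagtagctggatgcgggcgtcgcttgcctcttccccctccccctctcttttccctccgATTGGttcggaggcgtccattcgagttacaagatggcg
Ndc1, chr4:107367927-107368046, plus strand: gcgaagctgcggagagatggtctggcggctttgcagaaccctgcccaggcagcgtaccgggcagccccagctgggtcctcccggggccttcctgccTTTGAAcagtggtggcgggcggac

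A CCAAT box stood in 22 of the 49 windows (44.9%), against 33.8% of all 32851 windows in the table. TTTGAA stood in 10 (20.4%), against 16.0%, and both together in 7 (14.3%), against 5.55%. The 7 windows belong to Kpna2 (-0.51), Kpna7 (-0.47), Tpr (-0.35), Ranbp1 (-0.30), Nup37 (-0.12) and Nup98 (-0.028). Windows of members at or below the members' median held a CCAAT box in 11 of 25 cases, and those of the other measured members in 10 of 21, and for TTTGAA the counts were 6 of 25 and 4 of 21. The shares with the letters were thus close in both groups of windows. These counts leave out Xpo4 and Nup85, which had no window, and Nup37 entered with overlapping windows that hold the same matches.

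The remaining motifs were rare. TTTCCCGC was found in 2 windows (4.08%, against 0.895% of all), those of Ranbp1 and Nup210. TTTGGCGC was in 0 windows and TTCGAA in 1, that of Ipo11, which also holds a CCAAT box. The STAT letters were found in 1 window (2.04%), that of Nup107, against 7.02% of all windows. A match is a description of these letters in this window.

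**Figure D4:**
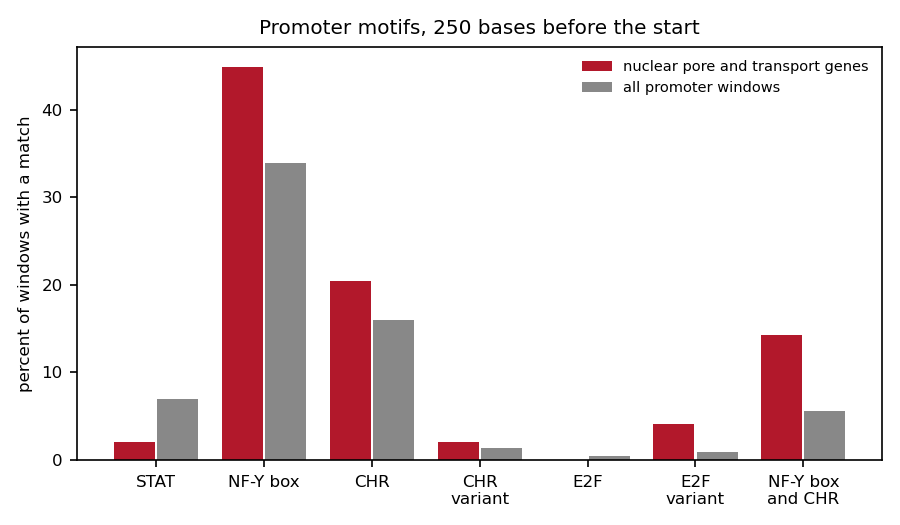
Percent of promoter windows, 250 bases before the annotated start, that hold each motif on either strand, for the nuclear pore and transport genes (49 windows) and for all windows in the table (32851). The NF-Y box (CCAAT) is at 44.9% in the member windows and 33.8% in all, and both it and a CHR (TTTGAA) at 14.3% in the member windows and 5.55% in all.

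The median of the members stayed below that of all genes under each way of processing that was tried. It ranged from -0.24 to -0.17 over 10 alternatives, and its gap to the median of all genes from -0.28 to -0.18. Synthetic spike-in RNA, read by 7 control probes, differed by a median of 0.043 before scaling, and with the arrays scaled on it the members' median was -0.24 and that of all genes -0.029. Among brighter probes alone, where 50 members were measured, the members' median was -0.22 and that of all genes 0.0021.

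**Figure D5:**
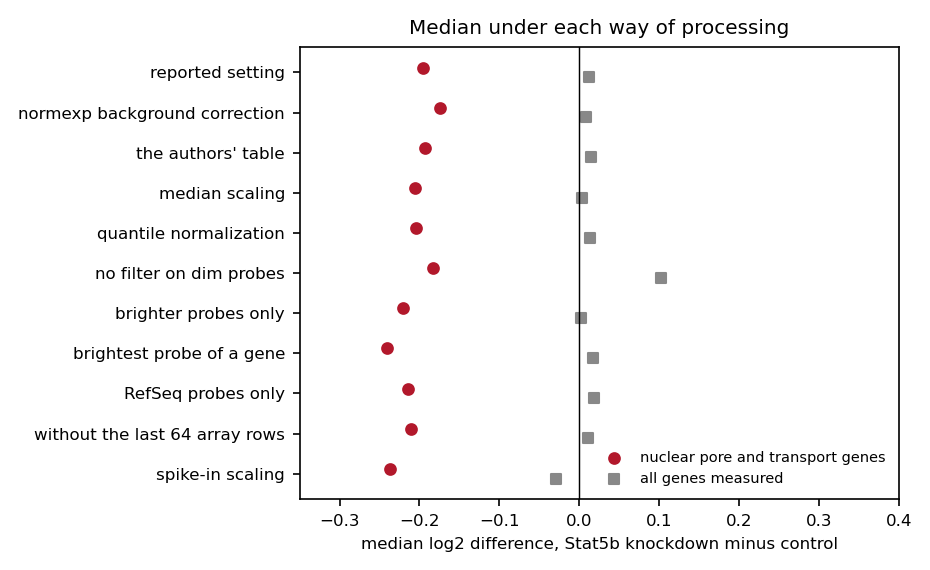
Median log2 difference, Stat5b knockdown minus control, of the nuclear pore and transport genes (circles) and of all measured genes (squares), under the reported setting and 10 alternatives. The members' median lies between -0.24 and -0.17 throughout; without the filter on dim probes that of all genes moves to 0.10.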

How the data were processed

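Each of 2 single-colour Agilent arrays, on 1 slide, carried RNA of 1 sample. Per the file headers, signal intensity was background-corrected with Feature Extraction 12.1.0.3 (protocol GE1_1200_Jun14), not scaled between arrays, with flags per spot. The deposited table of the authors holds log2 values equal, within 0.001 for 100% of 56294 single-spot probes, to log2 of that signal minus 1 constant per array.

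Outlier-flagged spots (94 on the knockdown array, 112 on the control array, of 59305) were left out and 0 were saturated. Signals were floored at 1, log2 values averaged per probe, and each array's 75th percentile (494 and 493) subtracted. Probes were named by accession through RefSeq (GRCm38), otherwise by the file's symbol. Scanner errors of the arrays, of a probe's spots and of a gene's probes were combined as independent. A probe above background on 1 array gives a bound against the lowest signal well above background on the other array. Where its own signal there was higher, the difference as read is given.

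A single array per group allowed no test, so calls are by size (1.5-fold, 2-fold). The rule named every measured member. Members and lists were chosen with earlier results of these data known. Alternatives were normexp (limma 3.58.1, offset 50, on spot medians), the authors' table, median, quantile and spike-in scaling, no filter, brighter probes (mean level above the median of those kept), brightest or RefSeq probes, and leaving out the last 64 rows. Gene averaging was tested on simulated data. The number of arrays limits the precision. Protein features, which were planned, were not analysed here.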

Additional observations from a re-analysis of the deposited data

How the results depend on the processing

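The members' median and the number below 0 kept their direction under all 10 alternatives: the median stayed between -0.24 and -0.17, and 39 to 45 members, or 74.5% to 86.5% of those measured, lay below 0. The number at least 1.5-fold lower, 2 as reported, was 1 with quantile normalization, 4 with the brightest probe of a gene, and 5 without the filter on dim probes or with spike-in scaling, an alternative chosen after seeing the data. With median scaling, among brighter probes and with RefSeq probes it was 3. Xpo4 was among them in each case. Over all genes the share that low was 8.51% with quantile normalization and 8.92% with the brightest probe. It was 10.0% without the filter and 9.56% with spike-in scaling. With median scaling it was 8.68%, among brighter probes 8.38% and with RefSeq probes 8.96%. The number at least 2-fold lower, 0 as reported, was 1 (Xpo4) under either choice of bright probes. The number at least 1.5-fold higher was 0, and 1 (Nup210l) with the brightest probe or RefSeq probes alone. Under those settings 11.9% and 11.6% of all genes were that much higher. Of 514 values of single members under an alternative, 6 moved by the SD between probes or more and 0 members past 1.5-fold changed sign. Without the filter Nup88 was at 0.16 and Nup93 at 0.43, from probes not well above background. The causes were not tested. No paired analysis was possible because each group held 1 array, and for the same reason no array could be left out. Signal over background limits the dim probes, such as those of Nup107 and Nup210l.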
